A study of Homo sapiens with 2 samples.

Results

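The proteasome is the protease complex that degrades ubiquitin-tagged proteins in the cytosol and nucleus. Its barrel-shaped core is built from alpha subunits, which form the gate, and beta subunits, some of which carry the cutting sites. Regulatory particles cap the core, recognise and unfold substrates, and pass them in. Interferon-inducible beta subunits can replace the constitutive cutting subunits to form the immunoproteasome, and dedicated chaperones assemble each particle. Described here is histone H4 acetylated at lysine 5 (H4K5ac), a mark found on nucleosomes of active chromatin, at the genes of this complex. The 48 genes are all RefSeq protein-coding genes on chromosomes 1 to 22 whose symbols start with PSMA, PSMB, PSMC, PSMD, PSME or PSMG followed by a number, out of 19126 protein-coding genes on those chromosomes. They comprise 14 core genes, 2 tissue-restricted core genes, 19 regulatory genes, 5 immunoproteasome genes, 6 assembly chaperone genes and 2 genes that carry the prefix without encoding a proteasome part. Symbols, not measured values, chose the members.

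The data are 2 chromatin immunoprecipitation sequencing libraries from FaDu, a long-established line grown from a human head and neck cancer. One library came from cells held in hypoxia, at 1% oxygen for 18 h, and 1 from cells in normoxia, and both are labelled H4K5Ac. Each condition had 1 library of a single cell line, so no test of hypoxia was possible, no p-values are given, and no difference below has a replicate check. The series design text names another histone mark as the antibody target, and the culture text mentions METTL4 knockdown by lentivirus, which the labels assign to neither library. The libraries differed as a whole: the hypoxia list held 258195 peaks with a median width of 294 bp, and the normoxia list 120033 peaks with a median width of 356 bp. The lowest background solved at any peak summit was 3.24 reads in hypoxia and 3.13 reads in normoxia. It was taken as the genome-wide background, which was not measured itself. The median background over all peaks went the other way, at 4.17 reads in hypoxia and 5.07 in normoxia. The narrowest hypoxia peak spanned 215 bp and the narrowest normoxia peak 245 bp. Read as fragment lengths, these widths and the lowest backgrounds put hypoxia reads at 1.18 times normoxia reads. This number is inferred. Of 8 squamous epithelial marker genes, 7 carried a gene-end peak in both lists and TP63 in hypoxia alone. Of 7 marker genes of lymphocytes, endothelium and erythroid cells, 1 (VWF) was marked in both lists, 5 in hypoxia alone and 1 in neither.

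Nearly all proteasome genes carried H4K5ac in both conditions. A gene was counted as marked when a peak overlapped, by at least 1 bp, a window of 1000 bp to each side of one of its RefSeq span ends. By this count 44 of 48 genes (91.7%) were marked in both lists, where the share over all protein-coding genes was 70.2%. PSMA8, PSMB11 and PSMG4, or 6.25% of the members, were marked in hypoxia alone, against 11.7% of all genes. No member was marked in normoxia alone (1.09% of all genes). PSMA6 was marked at neither end, against 17.0% of all genes. RefSeq's promoter table lists a transcription start for 42 members. PSMA7, PSMB1, PSMB6, PSMB7, PSMD4 and PSMG3 have no entry there and are described by their gene ends. Within 1000 bp of the first listed start, 40 of 42 members (95.2%) were marked in both lists, against 70.1% of all 15101 genes with a listed start. The other 2, PSMA8 and PSMB11, were marked there in hypoxia alone (9.84% of all genes), and no member was marked there in normoxia alone (0.934% of all genes). Of the 40, 39 in hypoxia and 40 in normoxia had a strong start peak, where strong means that the authors' −log10 q-value was 10 or more. The corresponding shares of all such genes were 95.3% and 88.7%.

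**Figure D1:**
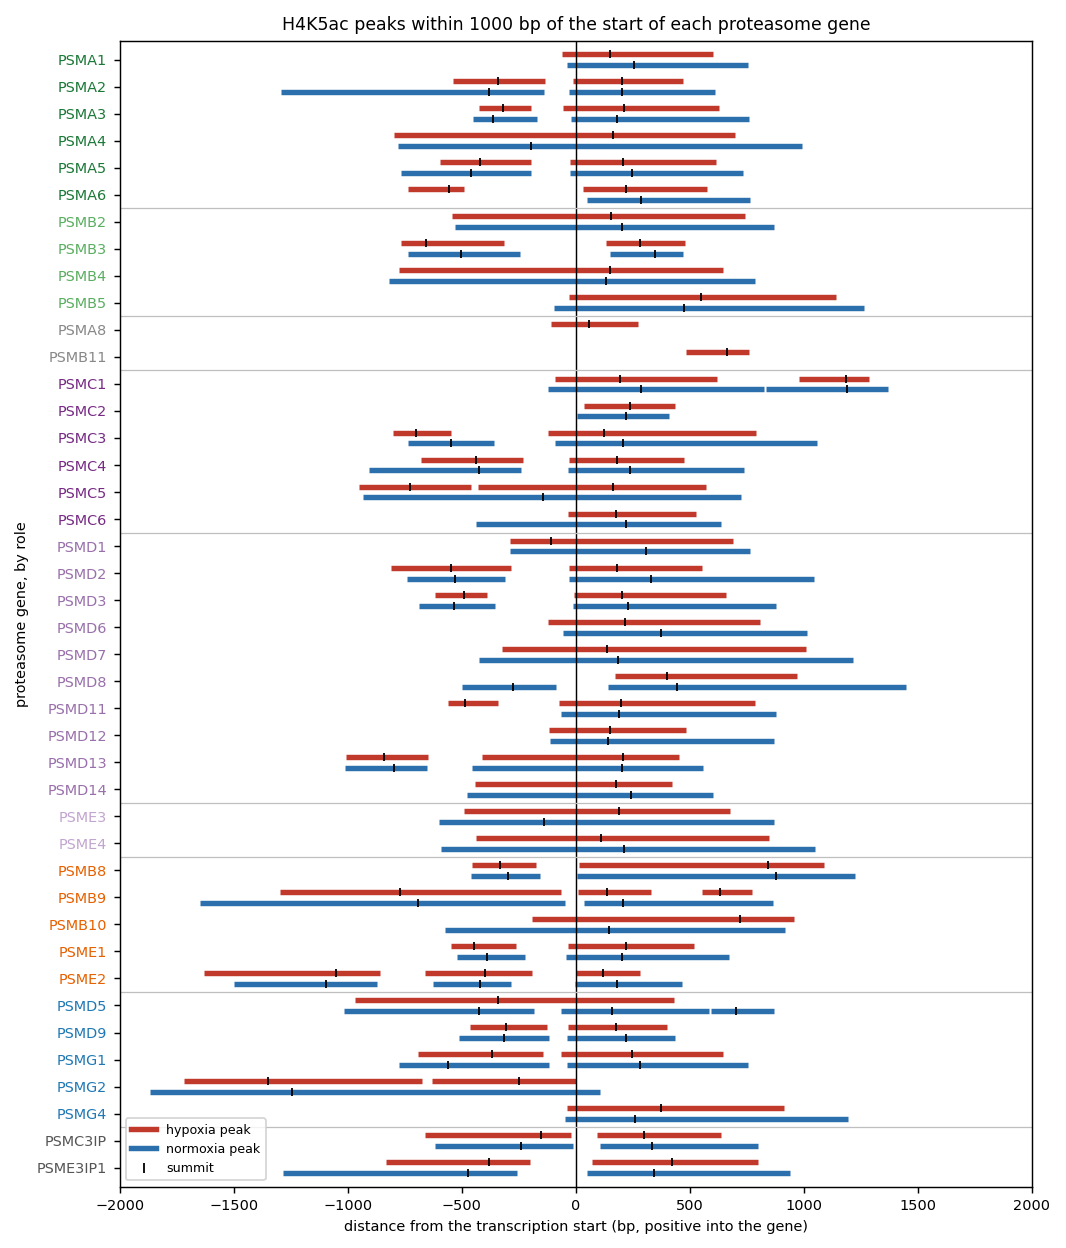
H4K5ac peaks within 1000 bp of the listed transcription start of 42 proteasome genes, drawn by distance from the start in bp (positive into the gene), with hypoxia peaks in red above normoxia peaks in blue and ticks at summits. Symbols are coloured by role and grey lines part the roles. Of the 38 genes whose highest-fold peaks overlap, 35 have the red downstream edge nearer the start, while upstream edges often coincide.

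The peaks were narrower in hypoxia at nearly every proteasome gene. The highest-fold start peak was narrower in hypoxia than in normoxia at 38 of 40 genes (95.0%), against 69.1% of all 10587 genes marked at the start in both lists. Its width had a median of 830 bp in hypoxia and 1064 bp in normoxia over the members. Over all such genes the medians were 891 bp and 1005 bp. The median difference, hypoxia minus normoxia, was −188.5 bp for proteasome genes and −94 bp for all genes. The exceptions, wider in hypoxia, were PSMD5 and PSME2 (30.8% of all genes were wider). At gene ends, which adds the members with no listed start, 40 of 44 were narrower in hypoxia, against 67.1% of all genes marked at an end in both lists. The wider ones there were PSMA1, PSMD4, PSMD5 and PSME2 (32.8% of all genes). The gene-end widths of PSMA5, PSMB3, PSMB6 and PSME2 compare peaks at different sites, as do the start-peak widths of PSMB3 and PSME2. At matched sites, PSMB3 and PSMB6 each had 1 peak wider and 1 narrower in hypoxia. Among the 38 members whose leading start peaks overlap, 37 were narrower in hypoxia, against 69.9% of all such genes. The 30 bp difference in narrowest peak width between the lists moves with this result. After 30 bp were taken off every normoxia width, 37 of 40 members (92.5%) and 63.1% of all genes were still narrower in hypoxia. Bases covered by any peak in the window around the start were also fewer in hypoxia at 38 of 40 members, against 66.7% of all genes, with medians of 1004.5 bp in hypoxia and 1287.5 bp in normoxia. Within 500 bp of the start they were fewer at 28 of 40 members, with a median difference of −27.5 bp against −179 bp within 1000 bp. The share of all genes was not computed within 500 bp, so whether members differ from other genes there is not known.

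**Figure D2:**
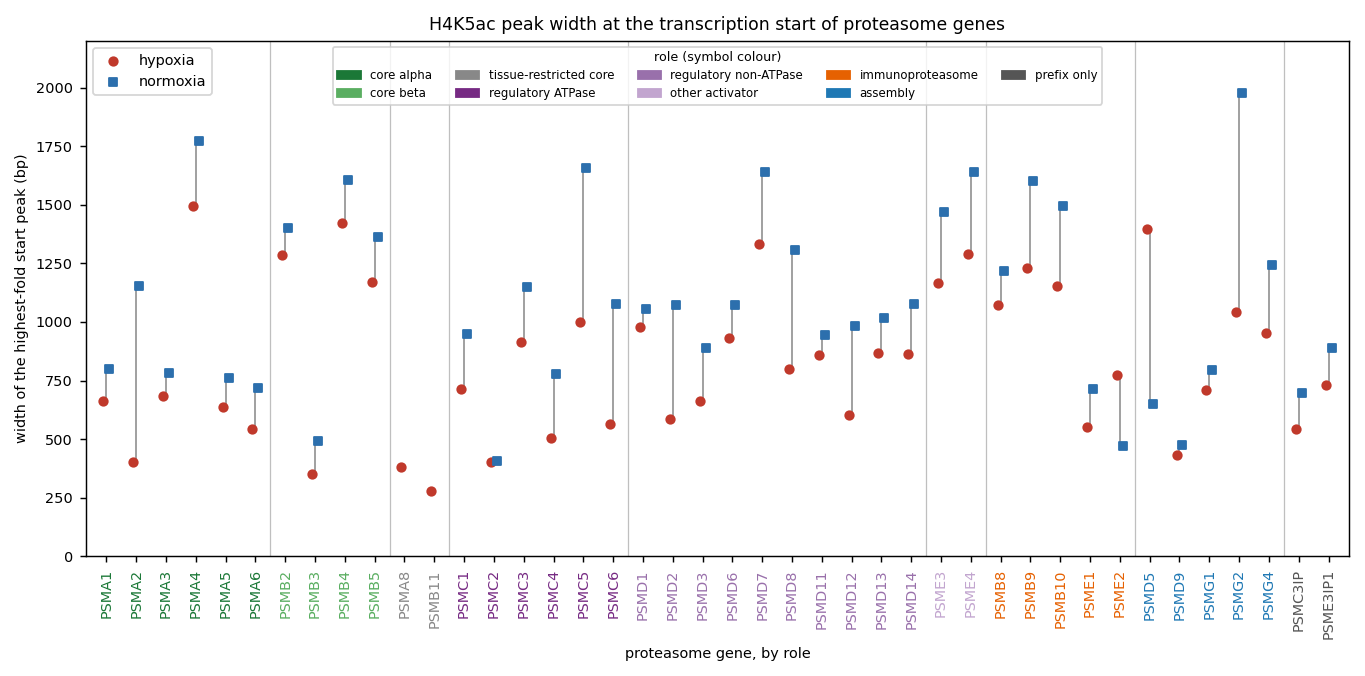
Width in bp of the highest-fold start peak of each of 42 proteasome genes, with hypoxia as red circles and normoxia as blue squares joined by a line, ordered by role. Red lies below blue for 38 genes, above it for PSMD5 and PSME2, and stands alone for PSMA8 and PSMB11.

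The edges of the peaks differed mainly on the side of the gene body. For 38 members the highest-fold peaks of the 2 lists overlapped each other. Their downstream edge lay a median of 632.5 bp into the gene in hypoxia and 794.5 bp in normoxia, and it was nearer the start in hypoxia at 35 of 38 (92.1%, against 69.4% of all genes with overlapping peaks). It was nearer by over 50 bp at 33 of 38 members, against 51.2% of all such genes. The median shift of this edge was −154.5 bp, against −54 bp for all such genes. Their upstream edge lay at a median of −84 bp from the start in hypoxia and −78 bp in normoxia, and was nearer the gene in hypoxia at 24 of 38 (58.7% of all such genes). The upstream edges of the 2 lists were within 50 bp of each other at 26 of 38 members (68.4%), against 46.6% of all such genes. For example, at PSMD2, a scaffold subunit of the regulatory particle, the peak ran from −30 to 554 bp from the start in hypoxia, and from −28 to 1044 bp in normoxia. At PSMC4, an ATPase of the same particle, it ran from −29 to 473 bp in hypoxia, and from −36 to 739 bp in normoxia. The summit lay inside the gene at 34 of 40 members in hypoxia and 33 of 40 in normoxia (69.9% and 69.6% of all such genes), at a median of 184.5 bp and 215 bp from the start. Of the 40 members, 22 in hypoxia and 20 in normoxia had 2 or more start peaks (47.1% and 43.5% of all such genes).

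**Figure D3:**
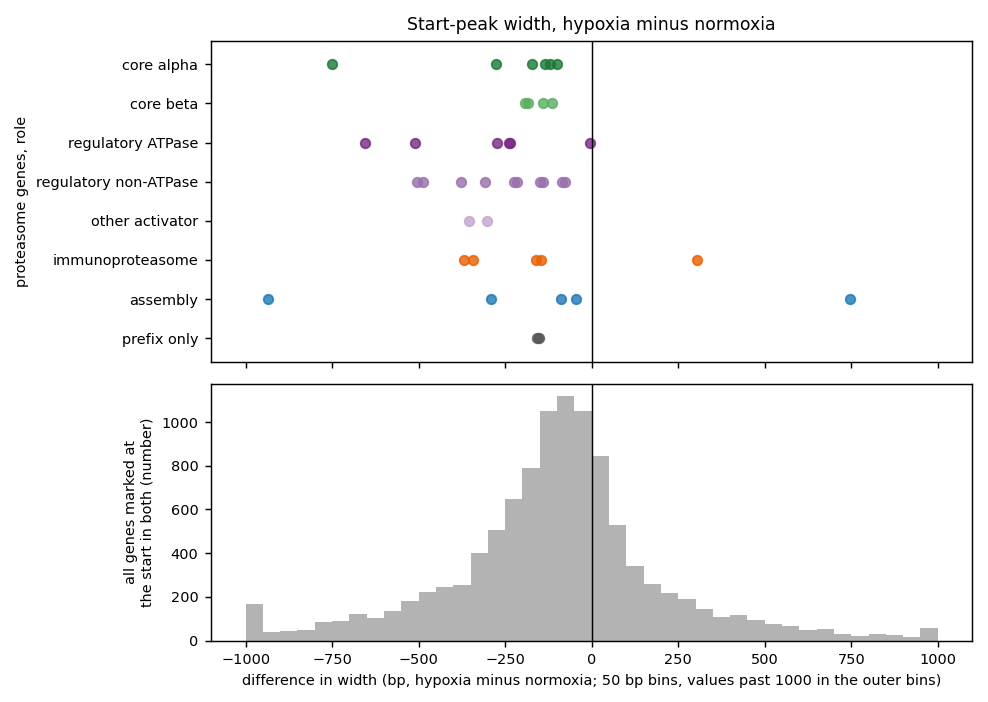
Difference in start-peak width in bp, hypoxia minus normoxia. The upper panel has 1 point per proteasome gene marked at the start in both lists, by role, and the lower panel counts all 10587 such genes in bins of 50 bp. Proteasome genes lie left of 0 except PSMD5 and PSME2, and their median of −188.5 bp lies left of the −94 bp of all genes.

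More reads covered the summits in hypoxia, as they did at most genes marked at the start in both lists. The pileup, the number of reads over a summit, was solved from the authors' fold and p-value of each peak. It was higher in hypoxia at 37 of 40 proteasome genes (92.5%), a share near the 92.3% of all genes marked at the start in both lists. The 3 genes with fewer reads in hypoxia were PSMB2, PSMB3 and PSMC6 (7.16% of all genes), and for PSMB3 the value compares peaks at different sites. Among the 38 members whose leading peaks overlap, 36 had more reads in hypoxia, against 92.8% of all such genes. At gene ends the pileup was higher in hypoxia at 40 of 44 members, against 91.8% of all genes, where the values of PSMA5, PSMB3, PSMB6 and PSME2 compare peaks at different sites. Summed over the 40 genes the start-peak pileup was 6019 reads in hypoxia (95% Poisson interval 5868 to 6173) against 4715 in normoxia (4581 to 4852), a ratio of 1.28 (1.229 to 1.326). The ratio of sums over all such genes was 1.41 (1.40 to 1.41), and the median ratio was 1.28 for members and 1.42 for all genes. These intervals cover counting error only, since reads without molecular identifiers are not independent molecules. Dividing by the inferred 1.18-fold read ratio leaves 1.08 for the members. The same divisor would apply to the 1.41 of all genes, so the members stay below all genes on that scale. The local background behind the summit was higher in hypoxia at 12 of 40 members (30.0%) but at 63.9% of all genes, with medians of 14.2 reads in hypoxia and 15.0 in normoxia for the members and 12.7 and 12.0 for all genes. The part of local background, read number and fragment length in the widths was not tested.

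**Figure D4:**
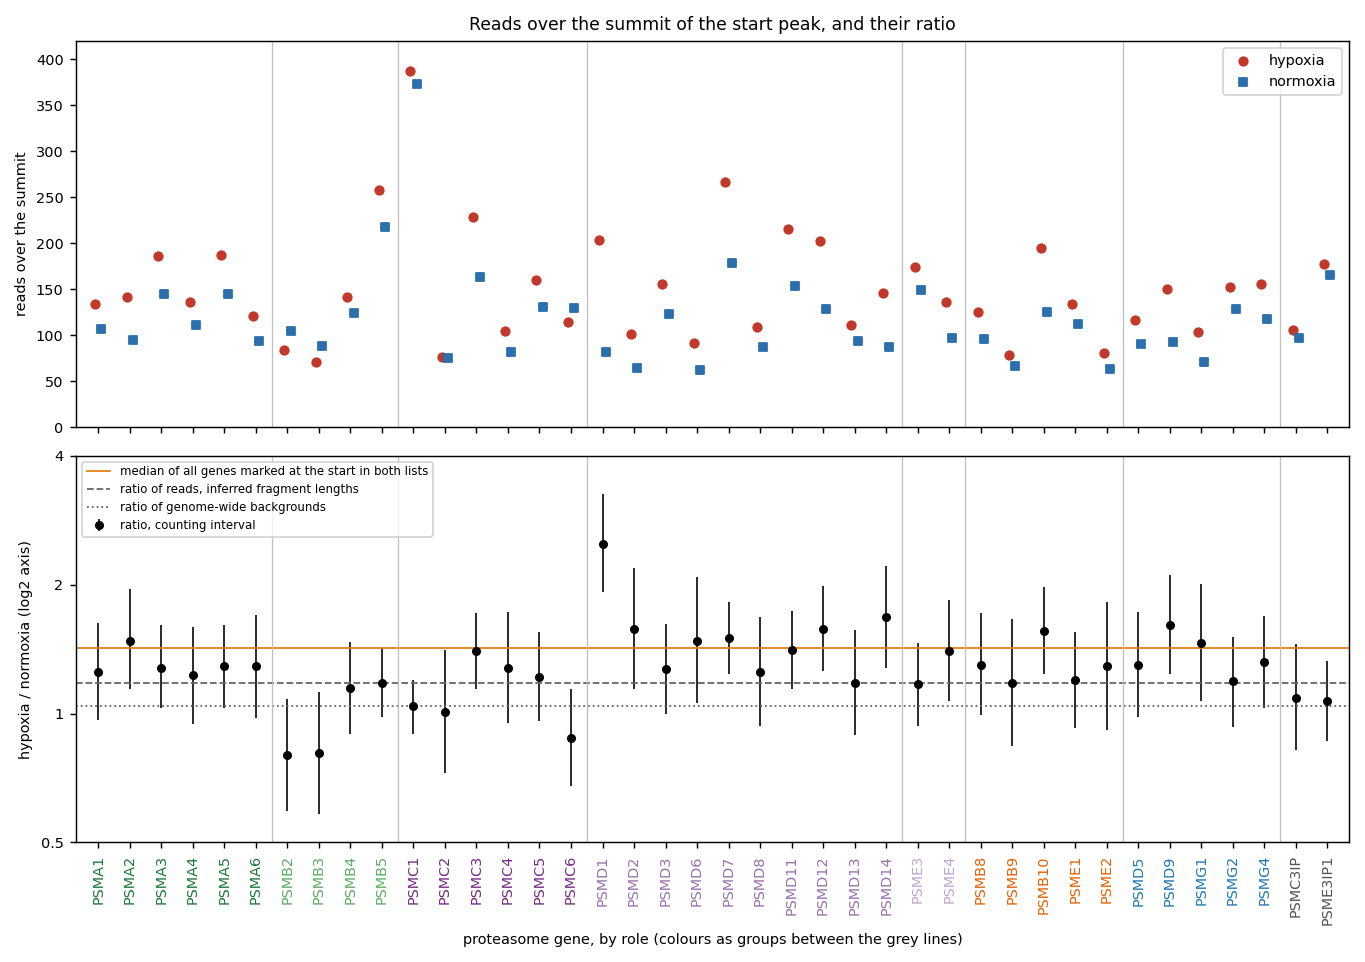
Reads over the summit of the start peak of 40 proteasome genes (upper panel, hypoxia as red circles, normoxia as blue squares) and their hypoxia over normoxia ratio with 95% counting intervals on a log2 axis (lower panel). The solid line is the median ratio of all genes, 1.42, and the dashed line the inferred ratio of reads, 1.18. The dotted line is the ratio of the lowest backgrounds, taken as genome-wide, 1.04. PSMD1 lies highest at 2.49 and PSMB2 lowest at 0.800.

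Core alpha subunit genes encode the rings that gate the barrel. All 6 with a listed start had a narrower start peak in hypoxia, with a median difference of −154 bp, and a higher pileup, with a ratio of sums of 1.30 (1.175 to 1.435). Among all genes marked at the start in both lists, 69.1% had a narrower peak and 92.3% a higher pileup. The ratio of sums over those genes was 1.41. PSMA4 had the widest start peak of any core gene in hypoxia, at 1497 bp, against 1774 bp in normoxia. PSMA2 had the largest width difference of the core genes, with 403 bp in hypoxia and 1152 bp in normoxia. Its strongest peak lay upstream of the start, with the summit at −343 bp in hypoxia against −380 bp in normoxia, on the side of the ribosomal protein gene MRPL32, whose gene end the peak also covered. PSMA2 had 141 reads over that summit in hypoxia against 95 in normoxia, a ratio of 1.48 (1.14 to 1.95).

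Annotated spans and marked starts came apart for 2 alpha genes and for 1 assembly gene. The span of PSMA6 (chromosome 14, 35278558 to 35317493) begins 13759 bp before its first listed start, and the peaks lay at that start. They were 545 bp wide with 121 reads in hypoxia, and 717 bp wide with 94 reads in normoxia. The span of PSMA1 (chromosome 11, 14504876 to 14643662) reaches 123276 bp past its listed start. Its gene-end peak therefore lay at the phosphodiesterase gene PDE3B, whereas the peak at its own start was 662 bp wide in hypoxia and 798 bp in normoxia. PSMG4, an assembly chaperone gene (chromosome 6, 3254404 to 3268049), has its listed start 4543 bp inside the span. There it was strongly marked in both lists, at 156 reads over 952 bp in hypoxia and 118 reads over 1243 bp in normoxia. Its count as hypoxia-only rested on a weak peak of 26 reads at the far end (−log10 q-value 5.07). PSMA5 had its highest-fold gene-end peaks at opposite ends. In hypoxia the peak at its start led with a fold of 9.35. In normoxia the peak at its far end, shared with the sorting receptor gene SORT1, led with a fold of 6.66. Both PSMA5 sites were marked in both lists. The start peak had 187 reads in hypoxia and 145 in normoxia, and the far-end peak 65 in hypoxia and 70 in normoxia.

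Of the 7 core beta subunit genes, 4 have a listed start. Their pileups summed to 555 reads in hypoxia against 535 in normoxia, a ratio of 1.04 (0.9196 to 1.17), and without PSMB3 to 484 against 447, a ratio of 1.08 (0.9502 to 1.234). Over all 7 at gene ends the median ratio was 1.15. PSMB2 had 84 reads in hypoxia against 105 in normoxia, a ratio of 0.800 (0.593 to 1.08). The leading PSMB3 peaks, with 71 reads in hypoxia and 88 in normoxia, are different sites. The inner PSMB3 peak, leading in hypoxia, had 71 reads over 351 bp in hypoxia and 57 reads over 321 bp in normoxia, a ratio of 1.25 (0.867 to 1.80). The upstream PSMB3 peak, leading in normoxia, had 83 reads over 456 bp in hypoxia and 88 reads over 492 bp in normoxia, a ratio of 0.943 (0.690 to 1.29). PSMB3 thus had the narrowest hypoxia start peak of the core genes, and the only one among the 40 under the strong limit, at a −log10 q-value of 9.65. PSMB4 had 142 reads over 1421 bp in hypoxia and 124 reads over 1606 bp in normoxia. The counting intervals of the PSMB2 and PSMB3 ratios include 1, which is not the level of other genes. The PSMB2 interval lies below both the inferred read ratio of 1.18 and the median ratio of all genes, 1.42.

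The constitutive cutting subunits and their interferon-inducible replacements were marked in both conditions. PSMB5, which provides the chymotrypsin-like activity, had the most reads of any core gene at 258 in hypoxia and 218 in normoxia, over 1169 bp in hypoxia and 1361 bp in normoxia. Its replacement PSMB8 (chromosome 6, 32840717 to 32844679) had 125 reads over 1073 bp in hypoxia and 96 reads over 1218 bp in normoxia. PSMB6, the caspase-like subunit gene, had a pair of peaks at its gene end in each list, and a different one led. The PSMB6 peak outside the gene, leading in hypoxia, had 85 reads over 445 bp in hypoxia and 53 reads over 437 bp in normoxia. The PSMB6 peak at the start of the span, leading in normoxia, had 81 reads over 567 bp in hypoxia and 90 reads over 692 bp in normoxia. Its replacement PSMB9 had 79 reads over 1231 bp in hypoxia and 67 reads over 1600 bp in normoxia. PSMB7, the trypsin-like subunit gene, had 131 reads over 652 bp in hypoxia and 90 reads over 742 bp in normoxia. Its replacement PSMB10 had 195 reads over 1152 bp in hypoxia and 125 reads over 1495 bp in normoxia, a ratio of 1.56 (1.24 to 1.97). The PSMB10 summit lay 719 bp into the gene in hypoxia and 145 bp in normoxia. That ratio thus compares different positions within overlapping peaks. The local background at PSMB10 was also higher in hypoxia, at 35.4 reads against 25.8.

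All 5 immunoproteasome genes were marked at the start in both lists, and all 5 leading peaks had more reads in hypoxia, with a ratio of sums of 1.33 (1.174 to 1.499), though those of PSME2 are different sites. Without PSME2 the ratio was 1.33 (1.168 to 1.521). For comparison, 70.1% of all genes with a listed start were marked there in both lists. Of those, 92.3% had more reads in hypoxia, with a ratio of sums of 1.41. PSMB8 and PSMB9 lie on either side of TAP1, the peptide transporter gene of antigen presentation, and each shared its start peak with an end of TAP1. The main PSMB9 peak lay upstream of the start and mostly inside the divergent TAP1 gene, which covers 809 of its 1231 bp in hypoxia and 1160 of its 1600 bp in normoxia, with its downstream edge at −66 bp from the PSMB9 start in hypoxia and −48 bp in normoxia. A separate peak inside PSMB9 had 53 reads over 323 bp in hypoxia and 42 reads over 828 bp in normoxia. PSME1 and PSME2 encode the partner subunits of the interferon-inducible activator. PSME1 had the narrowest hypoxia peak of the group, with 134 reads over 553 bp in hypoxia and 112 reads over 714 bp in normoxia. PSME2 had 3 peaks in each list, and the leading one differed. In hypoxia it lay upstream toward RNF31, with 81 reads over 774 bp, and in normoxia inside PSME2, with 63 reads over 471 bp. The PSME2 width and read values thus compare different peaks. The inner PSME2 peak itself had 56 reads over 280 bp in hypoxia and 63 reads over 471 bp in normoxia. The outer PSME2 peak had 81 reads over 774 bp in hypoxia and 54 reads over 626 bp in normoxia.

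The regulatory particle genes had the largest median width difference of the groups. All 18 with a listed start had a narrower start peak in hypoxia, at a median difference of −255.5 bp, and 17 of 18 had more reads. The shares of all genes marked at the start in both lists were 69.1% narrower and 92.3% with more reads. The ATPase genes PSMC1 to PSMC6, which encode the unfolding ring, had a ratio of sums of 1.12 (1.027 to 1.225). The non-ATPase genes had 1.52 (1.401 to 1.639), and all genes marked at the start in both lists had 1.41. These intervals carry counting error alone and leave out the spread between genes. Single-gene ratios of the 2 sets overlapped, at 0.877 to 1.40 for ATPase genes and 1.18 to 2.49 for non-ATPase genes. PSMD1, which encodes a large scaffold subunit, had 204 reads over its summit in hypoxia against 82 in normoxia, a ratio of 2.49 (1.92 to 3.26). This was the highest ratio of the 40 members, while the PSMD1 peak was nearly as wide in hypoxia (980 bp) as in normoxia (1056 bp). Its summit moved across the start, lying at −108 bp in hypoxia and at 309 bp in normoxia. The PSMD1 ratio thus compares different positions within overlapping peaks. PSMD14, the subunit that strips ubiquitin from substrates, followed with 146 reads in hypoxia and 87 in normoxia, and had the highest fold of the members in the hypoxia list, at 15.3.

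The ATPase gene PSMC1 had the deepest H4K5ac peak of the members in both libraries, at 387 reads in hypoxia and 373 in normoxia. Its ratio was 1.04 (0.898 to 1.20). That counting interval includes 1 and the inferred read ratio of 1.18, but lies below the median ratio of all genes, 1.42. The PSMC1 peak was 713 bp wide in hypoxia and 948 bp in normoxia. Within the hypoxia list the 5 members with the highest start-peak fold were PSMD14 (15.3), PSMA2 (14.4), PSMD12 (14.1), PSMA1 (13.6) and PSMC1 (12.9). Within the normoxia list they were PSMC1 (10.6), PSMD3 (9.72), PSMC6 (9.71), PSMA1 (9.17) and PSMD11 (8.89). Folds are the authors' values against the background of the same library, so they rank peaks within a list only.

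PSMC6 was the single regulatory gene with fewer reads in hypoxia, at 114 against 130, a ratio of 0.877 (0.676 to 1.14). Its peak spanned 564 bp in hypoxia against 1075 bp in normoxia, and its upstream edge differed more than its downstream edge. The PSMC6 peak ran from −36 to 527 bp from the start in hypoxia and from −438 to 636 bp in normoxia. PSMC5 had the largest width difference in the regulatory group, with 1001 bp in hypoxia and 1657 bp in normoxia, where 1 normoxia peak faced 2 hypoxia peaks, and covered bases were 1492 in hypoxia and 1657 in normoxia. PSMC2 had the narrowest start peak of the group, at 401 bp in hypoxia against 407 bp in normoxia, and nearly equal reads, at 76 in hypoxia and 75 in normoxia. PSMD7, a lid subunit gene, had the widest hypoxia peak at 1334 bp, against 1642 bp in normoxia, with 267 reads against 178. PSMD4, which encodes a ubiquitin receptor, was wider at its gene end in hypoxia, at 927 bp against 828 bp. The activator genes PSME3 and PSME4, which serve core particles without the ubiquitin machinery, had 1166 bp and 1288 bp in hypoxia against 1469 bp and 1642 bp in normoxia.

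Proteasome genes are known to be induced together by the transcription factor NFE2L1, which binds antioxidant response elements. The core letters of that element, TGACNNNGC, were found on either strand in 13 of 42 member promoters (31.0%) and in 14.2% of all 15101 promoters, from 250 bases before to 50 bases after the start. The stretches below are from RefSeq (GRCh38.p14, the assembly hg38 names) and show this element in the promoters of 2 regulatory genes, 1 activator gene and 1 chaperone gene. The capitals mark TGACNNNGC.
PSMD12 (chr17:67366713-67366762, minus strand): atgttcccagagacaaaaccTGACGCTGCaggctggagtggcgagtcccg
PSMD3 (chr17:39980750-39980799, plus strand): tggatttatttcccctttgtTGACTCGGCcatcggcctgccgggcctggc
PSME1 (chr14:24136088-24136137, plus strand): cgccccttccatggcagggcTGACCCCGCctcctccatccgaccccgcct
PSMG1 (chr21:39183605-39183654, minus strand): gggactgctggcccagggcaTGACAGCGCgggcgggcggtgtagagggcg
All 4 starts were marked in both lists. PSMD12 had 202 reads over 603 bp in hypoxia and 128 reads over 982 bp in normoxia. The PSMD12 peak kept its upstream edge, at −119 bp in hypoxia against −112 bp in normoxia, and its downstream edge lay at 483 bp in hypoxia against 869 bp in normoxia. PSMD3 had 156 reads over 665 bp in hypoxia and 123 reads over 889 bp in normoxia. PSMG1 had 104 reads over 709 bp in hypoxia and 71 reads over 797 bp in normoxia.

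Other promoter motifs were nearer to the genome-wide share, apart from the ETS letters. CCGGAAG, the ETS factor core, was in 33.3% of member promoters and 14.4% of all promoters. CCAAT, bound by NF-Y, was in 47.6% and 36.0%. TGCGCA, from the motif of nuclear respiratory factor 1, was in 14.3% and 10.6%. ACGTG, the hypoxia response element core, was in 21.4% of member promoters, 9 of 42, and in 23.6% of all promoters. Each motif was searched on both strands, and matches of different motifs can share bases. A match is a string of letters and was not tested as a binding site.

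Of the 5 assembly chaperone genes with a listed start, 4 had a narrower start peak in hypoxia and 1, PSMD5, a wider one. Among all genes marked at the start in both lists, 69.1% were narrower and 30.8% wider. Bases covered around the start were fewer in hypoxia at all 5, against 66.7% of all such genes. All 5 with a listed start had more reads in hypoxia, with a ratio of sums of 1.36 (1.208 to 1.527). So did 92.3% of all genes marked at the start in both lists, with a ratio of sums of 1.41. PSMG2 had the largest width difference of all members, with 1043 bp in hypoxia and 1978 bp in normoxia. There 1 normoxia peak, from −1869 to 108 bp, faced 2 hypoxia peaks upstream of and up to the start. The leading hypoxia peak ran from −1717 to −675 bp, with its summit at −1350 bp, and did not reach the PSMG2 start. Bases covered around the PSMG2 start were much closer, at 961 in hypoxia and 1109 in normoxia. PSMD5, a chaperone of the regulatory ATPase ring, went the other way. Its single hypoxia peak of 1397 bp faced 3 normoxia peaks of 274, 650 and 837 bp, and all bases covered around its start numbered 1397 in hypoxia and 1744 in normoxia. The wider PSMD5 peak therefore did not cover more of the window. PSMD9 had the narrowest hypoxia peak of the chaperones, at 432 bp against 477 bp, with 150 reads against 93, a ratio of 1.61 (1.24 to 2.11). PSMG3 had 109 reads over 1046 bp at its gene end in hypoxia and 99 reads over 1156 bp in normoxia.

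PSMA8 and PSMB11, whose products replace constitutive subunits in the testis and the thymus, stood apart from the rest. Both start peaks were in the hypoxia list alone and were weak. PSMA8 had 13 reads over 380 bp (fold 3.30, −log10 q-value 3.26), and the nearest normoxia peak lay 42287 bp from its start. PSMB11 had 25 reads over 278 bp (fold 2.51, −log10 q-value 3.38) with the summit 664 bp into the gene, and the nearest normoxia peak lay 3601 bp from its start. By q-value these peaks ranked within the top 78.9% and 71.9% of the hypoxia list, whereas 39 of the other 40 start peaks were within its top 10% (87.5% of all genes marked at the start in both lists). In normoxia 35 of the 40 were within the top 10% of that list (62.1% of all such genes). Neither was counted when the hypoxia list was limited to as many peaks as the normoxia list. The 120 bases before each start are shown beside those of PSMB5, which lies close to PSMB11 on chromosome 14, and of PSMD2, which had the most CpG of the members. The capitals mark CpG, the dinucleotide dense in the promoters of widely expressed genes.
PSMA8 (chr18:26133749-26133868, plus strand): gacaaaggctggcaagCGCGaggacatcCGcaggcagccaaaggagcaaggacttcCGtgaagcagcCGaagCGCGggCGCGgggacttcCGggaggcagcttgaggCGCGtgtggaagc
PSMB11 (chr14:23042092-23042211, plus strand): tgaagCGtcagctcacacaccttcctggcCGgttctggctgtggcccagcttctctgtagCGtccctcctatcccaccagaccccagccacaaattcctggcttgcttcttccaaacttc
PSMB5 (chr14:23035221-23035340, minus strand): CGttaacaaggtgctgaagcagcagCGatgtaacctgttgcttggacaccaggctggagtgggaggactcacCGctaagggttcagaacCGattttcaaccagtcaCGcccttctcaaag
PSMD2 (chr3:184299121-184299240, plus strand): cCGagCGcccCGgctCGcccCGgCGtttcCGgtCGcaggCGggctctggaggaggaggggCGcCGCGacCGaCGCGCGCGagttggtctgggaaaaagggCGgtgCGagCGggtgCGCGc
Over the 250 bases before the start, PSMA8 had 18 CpG, PSMB11 had 4, PSMB5 had 7 and PSMD2 had 33. The median was 19 for the 42 members, 22 for all genes marked at the start in both lists, 8 for those marked in hypoxia alone and 3 for those marked in neither. PSMA8 thus lay close to the members' median, while PSMB5, with the most reads of the core genes, lay near the low end.

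Some proteasome genes shared their mark with a neighbour. The leading start peak of 11 of 42 members in hypoxia and 11 of 40 in normoxia also covered the 1000 bp around an end of another protein-coding gene. The shares of all genes with a start peak were close to these, at 24.0% in hypoxia and 26.0% in normoxia. In hypoxia these pairs included PSMA2 with MRPL32, PSMC2 with PMPCB, PSMC5 with FTSJ3, PSMD13 with SIRT3, PSMG1 with BRWD1 and PSME4 with ACYP2. The reads at such peaks cannot be divided between the genes. PSMC3IP, a meiotic recombination factor, and PSME3IP1, a binding partner of an activator subunit, carry the prefix without encoding proteasome parts. Their start peaks spanned 544 bp and 732 bp in hypoxia, against 696 bp and 891 bp in normoxia, with read ratios of 1.09 (0.822 to 1.45) and 1.07 (0.863 to 1.33).

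Genes that act on or with the proteasome were also marked in both conditions. Of 30 listed genes, 28 lie on the chromosomes used, and 27 of these (96.4%) were marked at a gene end in both lists, against 70.2% of all genes. The exception, PSMF1, which encodes a proteasome inhibitor, was marked at neither end, although its span held 4 hypoxia and 3 normoxia peaks. NFE2L1 had 223 reads over 753 bp in hypoxia and 167 reads over 794 bp in normoxia. Its relative NFE2L2 had 294 reads over 1866 bp in hypoxia and 206 reads over 1947 bp in normoxia. NGLY1, the deglycosylating enzyme that helps activate NFE2L1, had fewer reads in hypoxia, at 45 against 64. Of the 23 listed genes marked at the start in both lists, 17 (73.9%) had a narrower start peak in hypoxia and 22 (95.7%) had more reads, shares near the 69.1% and 92.3% of all genes. Their median width difference was −81 bp, against −188.5 bp for the proteasome genes and −94 bp for all genes.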

How the data were processed

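H4K5ac libraries from FaDu cells (1 hypoxia, 1 normoxia) were sequenced from one end to 75 bp, as the labels' protocols state. The authors deposited 1 narrowPeak list per library, so peaks were called per sample. MACS2, SICER and hg38 are named per the submitters' processing notes; no version, setting or control is given in the sources used here. The deposited values are a score, a fold enrichment (a ratio to the library's own background), the p-value and the q-value of each peak, both as −log10, and the offset of its summit. Different peak-calling settings between libraries would move widths and peak numbers.

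The pileup and background at each summit were solved from the deposited fold and −log10 p, taking fold as (pileup + 1) / (background + 1) and p as a Poisson tail. A whole pileup matched p within 0.001 for 99.999% of hypoxia and 100.0% of normoxia peaks, and the solver was tested on simulated data. Read totals are otherwise unknown. Gene spans and starts are RefSeq's (GRCh38.p14). Where several starts are listed, the first was used. The measured peak is the highest-fold peak in the window. Ratio intervals are exact binomial, at 95%, from the 2 pileups. Members are not replicates.

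Genes named are every member not marked in both lists, the immunoproteasome members and their counterparts, the extremes of width and fold, members with peaks at opposite ends, up to 6 with shared peaks, NFE2L1, NFE2L2 and PSMF1. PSMA1, PSMB4, PSMC4, PSMD1, PSMD2, PSMD4, PSMD9, PSMG1, PSMG3, PSME3, PSME4 and NGLY1 were also named, most of them after their values were seen. The members and lists were chosen with earlier results of these data known. Alternatives covered windows, q-value limits, list length, joined peaks, the peak measured and scaling. The computations used Python 3.11.15, pandas 2.3.3, numpy 2.4.6 and scipy 1.17.1.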

Additional observations from a re-analysis of the deposited data

How the results depend on the processing

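With 1 library per condition, no library could be left out. No paired analysis was possible because each condition had 1 library and the labels give no replicate numbers. Of 93 recomputed values, 73 were the same by the limits used (1.5 times for a count, the counting interval for a share), 20 moved, and none with a sign changed it. The share of members narrower in hypoxia was 90.9% to 97.5% under all settings run, and the median difference ran from −158.5 to −231 bp. The share of all genes was recomputed only for overlapping leading peaks (69.9%), the narrowest-peak correction (63.1%) and either gene end (67.1%). Under the other settings the contrast between members and all genes was not checked. The limits are those of the weak peaks. Gene-end members marked in hypoxia alone numbered 3, but 1 with 2000 bp windows, with −log10 q of at least 5 and with equal list lengths, and 0 with −log10 q of at least 10, where 1 (PSMB3) was marked in normoxia alone. Members marked at neither end numbered 1, but 2 with 500 bp windows, 0 with 2000 bp, 3 with −log10 q of at least 5 and with equal list lengths, and 4 with at least 10. At the start, the 2 hypoxia-only members were 0, and 2 were marked in neither, with −log10 q of at least 5 or 10 and with equal list lengths; 1 (PSMB3) was marked in normoxia alone with at least 10. The median difference in covered bases was −179 bp, −27.5 bp with 500 bp windows and −284 bp with 2000 bp windows. The members' summit read ratio of 1.28 was 1.08 scaled by the inferred number of reads and 1.23 scaled by the lowest background. The use of overlapping leading peaks only, of any listed start, of either gene end and of the narrowest-peak correction was chosen after seeing the data.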

Other observations

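Peaks were also counted over whole gene spans, ends included. Spans of the 48 genes held 207 hypoxia and 115 normoxia peaks, a ratio of 1.80, against 2.05 for all protein-coding genes. PSMA3 held 14 in hypoxia and 4 in normoxia, PSMD1 held 15 and 6, PSMD11 held 10 and 3, PSMG2 held 14 and 8, and PSME4 held 16 and 13. PSMC1 and PSMD14 held fewer in hypoxia, with 5 and 6 in PSMC1 and 6 and 7 in PSMD14. Spans of the 5 immunoproteasome genes, which are short, held 7 and 6.

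Peaks at the end of the gene away from the start were found for 10 of 33 members in hypoxia (30.3%) and 2 of 33 in normoxia (6.06%), counting spans over 4000 bp whose listed start lies within 1000 bp of a span end. The shares of all such genes were 24.6% in hypoxia and 13.2% in normoxia. PSMC1 and PSMA5 had such a peak in both lists. PSMA3, PSMC6, PSMD1, PSMD7, PSMD9, PSMD12, PSMD13 and PSMG2 had one in hypoxia alone. Most of these hypoxia-only peaks were weak. Only that of PSMD9 reached the strong limit, at a −log10 q-value of 10.6 with 37 reads. The rest ran from 2.4 (PSMD13) to 7.77 (PSMC6), with 12 to 38 reads. Far-end counts were not recomputed with q-value limits or equal list lengths. These values are given without a test.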
